A study of Homo sapiens with 8 samples.

Results

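LUCAT1, LINP1, RFPL1S and ZC3H12A-DT are 4 long non-coding RNAs (lncRNAs) whose counts were lower after NFE2L2 siRNA in A549 cells and that are not among the 15 lncRNAs that the study had predicted to respond to NFE2L2. They were found by Ensembl identifier in the count files and are 4 of 60291 genes and of 12921 lncRNAs listed there. They were chosen by their lower counts in the comparison of NFE2L2 siRNA with control siRNA, so their differences in that comparison are given as a description, without a test. A549 is an established line derived from a human lung adenocarcinoma, and it carries a mutated KEAP1 that leaves NRF2, the product of NFE2L2, highly active. All libraries are strand-specific total RNA of A549 cells. The 3 NFE2L2 siRNA libraries come from 3 duplexes against NFE2L2, each transfected 1 time. The 4 control siRNA libraries come from 2 control duplexes, duplex 1 in control libraries 1 and 2 and duplex 2 in control libraries 3 and 4. The mock library, which received the transfection reagent alone, is a single library and was set beside the others without a test. Each transfection used 250000 cells, and the siRNA transfections used 5 nmol of siRNA with harvest at 48 h. The transfections are of 1 cell line, so p-values measure the spread between these transfections only.

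NRF2 is a transcription factor of the response to oxidative and electrophilic stress. In unstressed cells KEAP1 and the CUL3 ubiquitin ligase mark it for destruction, and when it escapes it pairs with small MAF proteins at antioxidant response elements (AREs) of genes for glutathione synthesis, quinone reduction and NADPH supply. Of the lncRNAs, LUCAT1 is known as a stress-induced transcript of lung epithelium that restrains interferon-stimulated genes, and LINP1 as a scaffold that brings Ku and DNA-PKcs together in non-homologous end joining. RFPL1S is an antisense transcript of RFPL1, and ZC3H12A-DT is the divergent transcript of ZC3H12A, which encodes the endoribonuclease Regnase-1, a brake on inflammatory mRNAs.

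The promoter sequences are shown first because NRF2 acts through a short DNA element. RefSeq promoters (250 bases before and 50 after the start site, from the GRCh38.p14 annotation, placed in GRCh37 by exact match) were found for 3 of the 4 lncRNAs and for ZC3H12A, whose window covers the gap to ZC3H12A-DT. They are printed in the direction of transcription, with matches to the ARE core TGACNNNGC on either strand in capitals. They lie at chr5:90610170-90610469 (minus strand) for LUCAT1, chr10:6779094-6779393 (plus strand) for LINP1, chr22:29838069-29838368 (minus strand) for RFPL1S and chr1:37939931-37940230 (plus strand) for ZC3H12A.
LUCAT1: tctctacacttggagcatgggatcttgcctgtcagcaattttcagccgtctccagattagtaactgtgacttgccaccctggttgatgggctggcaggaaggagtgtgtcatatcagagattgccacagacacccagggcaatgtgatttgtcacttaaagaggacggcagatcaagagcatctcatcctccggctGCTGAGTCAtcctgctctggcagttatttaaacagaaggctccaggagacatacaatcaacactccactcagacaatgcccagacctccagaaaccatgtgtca
LINP1: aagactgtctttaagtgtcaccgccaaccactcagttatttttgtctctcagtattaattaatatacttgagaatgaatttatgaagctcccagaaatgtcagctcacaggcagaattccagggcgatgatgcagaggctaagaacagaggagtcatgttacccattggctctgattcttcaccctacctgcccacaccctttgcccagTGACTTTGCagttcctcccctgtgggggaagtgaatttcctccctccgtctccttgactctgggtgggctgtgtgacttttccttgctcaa
RFPL1S: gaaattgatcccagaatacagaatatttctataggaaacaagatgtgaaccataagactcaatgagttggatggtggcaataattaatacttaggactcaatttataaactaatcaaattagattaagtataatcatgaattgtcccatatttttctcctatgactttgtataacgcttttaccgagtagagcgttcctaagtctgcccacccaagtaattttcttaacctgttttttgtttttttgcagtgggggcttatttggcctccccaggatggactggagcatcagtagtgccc
ZC3H12A: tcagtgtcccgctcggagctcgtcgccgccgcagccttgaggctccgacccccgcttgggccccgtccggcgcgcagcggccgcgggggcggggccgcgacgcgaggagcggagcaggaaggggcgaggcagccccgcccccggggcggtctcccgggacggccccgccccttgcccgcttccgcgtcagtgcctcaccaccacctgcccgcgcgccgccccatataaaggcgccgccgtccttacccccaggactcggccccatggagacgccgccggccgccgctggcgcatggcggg

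The LUCAT1 promoter held the ARE core on the strand opposite to the gene, printed as GCTGAGTCA and starting 54 bases before the start site. This match also has the stricter form TGACTCAGC, and it overlaps an AP-1 match, TGANTCA, that starts 52 bases before the start site. The LINP1 promoter held the core on the gene's own strand, TGACTTTGC, 41 bases before the start site. Neither the RFPL1S nor the ZC3H12A window held these letters. Among 35116 promoters of the same length, 13.3% held the core, 0.561% the strict form and 7.71% the AP-1 form. Of 19 NRF2 targets with a promoter in the table (from the list of 28 described further on), 7 held the core, 2 the strict form and 3 the AP-1 form. Counted per gene over 27305 genes, the shares were 16.1%, 0.689% and 9.37%. A match to a motif is a description of the sequence, and no binding was measured in these libraries. The RefSeq start site of LUCAT1 lay 145 bp inside the annotated 5′ end of the gene, that of LINP1 27852 bp inside and that of RFPL1S 36046 bp inside, so for LINP1 and RFPL1S the windows describe an internal start. GC content of the windows was 49.7% for LUCAT1, 47.3% for LINP1, 37% for RFPL1S and 79.0% for ZC3H12A.

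Between 35525141 and 41645410 reads were counted on genes in the 7 libraries that were compared, and 39498992 in the mock library. The targeted gene was lower in every NFE2L2 siRNA library. NFE2L2 had 1178, 2044 and 1262 reads in the NFE2L2 siRNA libraries 1 to 3, against 3974, 4100, 4166 and 4227 in the controls and 4408 in the mock library. Its log2 fold change was -1.55 (SE 0.178, edgeR quasi-likelihood test, adjusted p = 0.000994), and duplex 2 left 46.6% of the control mean against 29.5% for duplex 1 and 26.6% for duplex 3. Over all genes, 491 of 17811 tested passed the adjusted p threshold of 0.01 (2.76%), and among lncRNAs 18 of 2166 tested passed it as reduced (0.831%), 3 of them predicted by the study. The paper used DESeq2 on the same libraries and called more lncRNAs. It reported most of the predicted lncRNAs that were expressed in A549 cells as repressed, by the size of the change and not by an adjusted p. The 3 thus do not measure how many of the predicted lncRNAs fell. With a single library left out, the number over all genes ran from 163 without control library 2 to 915 without NFE2L2 siRNA library 2. The median log2 fold change of all tested genes was 0.01. Epithelial markers were present (5 of 5, summed CPM 7337 to 11695 in NFE2L2 siRNA and 7634 to 8383 in control libraries, most of it from KRT8 and KRT18). Their median log2 fold change was 0.74 and 0 of 5 passed the threshold, with KRT19 at 0.88 (edgeR adjusted p = 0.0200), EPCAM at 0.80 (edgeR adjusted p = 0.0624) and CDH1 at 0.74 (edgeR adjusted p = 0.0455). Of 5 alveolar type II markers only NAPSA reached 10 reads. The 3 immune markers and VWF stayed under 10 reads in every library. The fibroblast markers COL1A1 and COL3A1 summed to 11.3 to 16.9 CPM in NFE2L2 siRNA libraries and to 4.93 to 6.29 CPM in controls, 5.46 CPM in the mock library. COL1A1 passed the threshold as increased, by 1.497 on the log2 scale (edgeR adjusted p = 0.000493), and COL3A1 was at 1.00 (edgeR adjusted p = 0.0359). The part of the epithelial and fibroblast markers in the results was not tested.

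LUCAT1 (ENSG00000248323.1, chr5:90350651-90610364 of GRCh37, minus strand) had 235, 242 and 236 reads in the NFE2L2 siRNA libraries, against 653, 661, 839 and 693 in the control libraries and 656 in the mock library. The groups did not overlap, and the 3 NFE2L2 siRNA values were closer to each other than the control values were. After scaling by library size (CPM, counts relative to the library total, with TMM factors) the level was 6.09 ± 0.515 (SD, n = 3) against 19.3 ± 2.37 (SD, n = 4), a log2 fold change of -1.66 (SE 0.134) or 3.17-fold lower. In a sample of bulk RNA, fewer cells with a transcript and less of it per cell cannot be told apart. Duplexes 1, 2 and 3 left 34.1%, 31.9% and 28.7% of the control mean. The mock library, at 16.4 CPM or 85.1% of the control mean, lay below all 4 control libraries and above all 3 NFE2L2 siRNA libraries.

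LINP1 (ENSG00000223784.1, chr10:6751492-6782494, plus strand) had 38, 76 and 67 reads after NFE2L2 siRNA and 240, 289, 256 and 233 in the controls, with 265 in the mock library. Again no NFE2L2 siRNA library reached any control library. Its level was 1.52 ± 0.438 CPM (SD, n = 3) against 6.90 ± 0.624 CPM (SD, n = 4), a log2 fold change of -2.17 (SE 0.201) or 4.50-fold lower. The duplexes were less alike here than for LUCAT1, with 15.4% of the control mean left by duplex 1, 28.0% by duplex 2 and 22.8% by duplex 3. The mock library (6.64 CPM) lay within the control range.

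RFPL1S (ENSG00000225465.6, chr22:29832818-29874164, minus strand) was the least counted of the 4, with 1, 1 and 4 reads after NFE2L2 siRNA and 33, 29, 35 and 27 in the controls. It passed the minimum of 10 reads in at least 1 library through the control libraries alone. Its level was 0.0491 ± 0.0389 CPM (SD, n = 3) against 0.840 ± 0.0921 CPM (SD, n = 4), a fitted log2 fold change of -3.96 (SE 0.403). From summed reads, 6 against 124, the controls were 16.1-fold higher per library size, with a 95% exact interval of 7.19 to 44.7. The interval covers counting error only. It makes no allowance for the choice of RFPL1S by its lower counts, so it is not a test. Without NFE2L2 siRNA library 3, which holds 4 of the 6 reads, the fitted value was -4.81. The mock library had 25 reads (0.626 CPM, 74.5% of the control mean), below all 4 control libraries. The share of all tested genes in that position was not counted, so for RFPL1S and LUCAT1 it is a description. The RFPL genes are close copies of each other, so reads that fit more than 1 of them may have been misplaced or left out, which was not measured. RFPL3S, the antisense transcript of the related gene RFPL3, had a log2 fold change of 0.03 (SE 0.337, edgeR adjusted p = 0.974).

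ZC3H12A-DT (ENSG00000233621.1, chr1:37816535-37940033, minus strand) had 248, 200 and 294 reads after NFE2L2 siRNA and 663, 644, 737 and 732 in the controls. Its level was 6.31 ± 1.06 CPM (SD, n = 3) against 18.8 ± 1.48 CPM (SD, n = 4), a log2 fold change of -1.58 (SE 0.142) or 2.98-fold lower, and the groups did not overlap. Duplex 2 left 27.0% of the control mean, and duplexes 1 and 3 left 36.8% and 36.7%. Of the 4 lncRNAs only this transcript was higher in the mock library than in every control library, with 992 reads or 24.8 CPM, 131.9% of the control mean. Of all tested genes, 22.6% were above all 4 control libraries in the mock library.

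**Figure D1:**
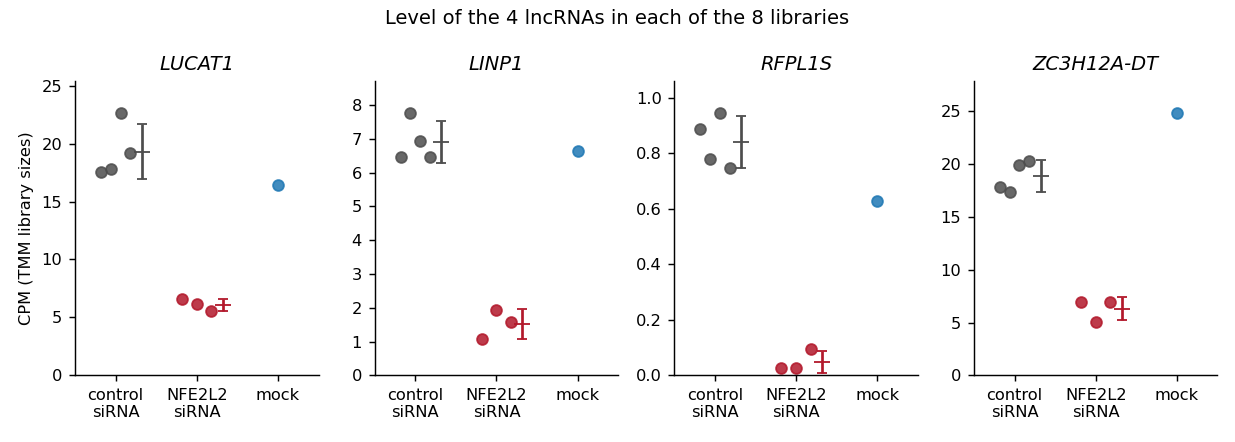
Level of each lncRNA in CPM (vertical axes, linear from 0, scaled per gene) in the 4 control siRNA, 3 NFE2L2 siRNA and 1 mock library. Points are libraries and the bars beside them the mean ± SD. The NFE2L2 siRNA points of LUCAT1 lie between 5.55 and 6.57 CPM and its control points between 17.5 and 22.7 CPM, and the groups are apart for all 4 lncRNAs.

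All 4 lncRNAs were lower in every NFE2L2 siRNA library than in every control library, which held for 232 of 2166 tested lncRNAs (10.7%) and follows here from how the 4 were chosen. The duplex that left the most NFE2L2 mRNA, duplex 2, was not the one that left the most of each lncRNA. It left the most LINP1, a middle level of LUCAT1, and the least RFPL1S and ZC3H12A-DT among the 3 duplexes. With 3 duplexes and 1 transfection each, the error of such an order was not measured, and for RFPL1S it rests on 1, 1 and 4 reads.

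**Figure D2:**
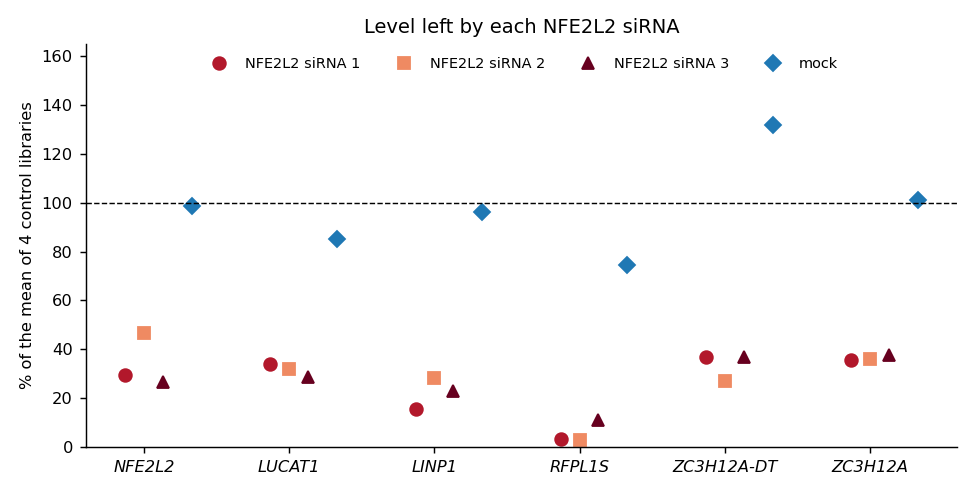
Percent of the mean of the 4 control libraries (vertical axis) that was left by each of the 3 NFE2L2 siRNAs and found in the mock library, for NFE2L2, the 4 lncRNAs and ZC3H12A. NFE2L2 siRNA 2 stands above the others for NFE2L2 at 46.6%, and the mock library stands above 100% for ZC3H12A-DT at 131.9%.

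The control duplexes were also compared with each other. The same 4 control libraries entered the comparison that chose the lncRNAs, which favours genes with a small spread among them, so these values are not independent of the choice. Control duplex 2 was compared with duplex 1 in a fit of all 7 libraries, and 0 of 17811 genes passed the threshold (0%), in edgeR and in limma-voom, with 1293 and 1261 genes at an unadjusted p under 0.05. In the 4 control libraries alone, the edgeR test called 566 genes, so the control duplexes did differ for other genes. LUCAT1 differed by 0.25 on the log2 scale (SE 0.144, edgeR adjusted p = 0.805) and ZC3H12A-DT by 0.19 (SE 0.167, adjusted p = 0.900). LINP1 differed by -0.09 (SE 0.239, adjusted p = 0.976) and RFPL1S by 0.02 (SE 0.343, adjusted p = 0.997). In the control libraries alone the adjusted p was 0.113 for LUCAT1, 0.129 for ZC3H12A-DT, 0.715 for LINP1 and 0.961 for RFPL1S. Against each control duplex alone, with 3 NFE2L2 siRNA and 2 control libraries, 3 of the 4 lncRNAs passed the threshold against duplex 1 and 2 of the 4 against duplex 2. Over all genes, 120 and 59 passed in these fits, against 491 in the main comparison. The 4 were chosen on these same libraries, so their counts are a description and not a test. Their log2 fold changes were negative in each case. LUCAT1 had a log2 fold change of -1.55 against duplex 1 and -1.78 against duplex 2, LINP1 of -2.23 and -2.13, RFPL1S of -3.96 and -3.98, and ZC3H12A-DT of -1.49 and -1.67.

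Among the 18 reduced lncRNAs, ordered by log2 fold change, RFPL1S stood at place 3, LINP1 at place 5, LUCAT1 at place 9 and ZC3H12A-DT at place 11. The transcripts just outside them were LINC01564, a predicted lncRNA, at -3.99 above RFPL1S and CD27-AS1 at -1.53 below ZC3H12A-DT. Between them lay LINC00488 (-2.48), PITRM1-AS1 (-1.99), RP5-1024G6.8 (-1.90), IDI2-AS1 (-1.88) and the predicted LINC02561 (-1.64). Other reduced lncRNAs thus lay between the 4, and these values carry no test since the reduction chose them.

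**Figure D3:**
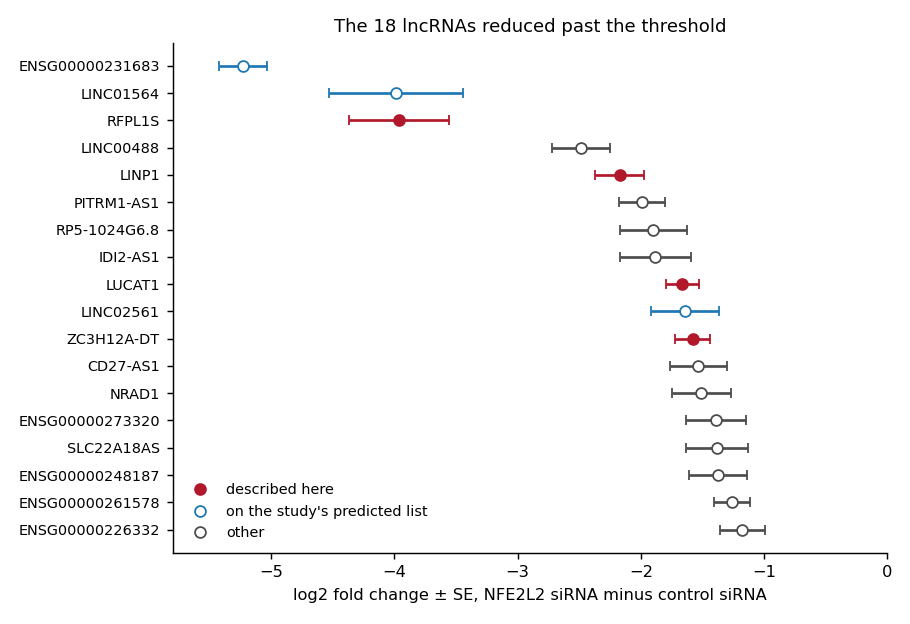
Log2 fold change with its standard error (horizontal axis) of the 18 lncRNAs reduced past the threshold, in order of size. Filled red points are the 4 lncRNAs described, open blue points lncRNAs the study had predicted, and open grey points the others. The values run from -5.23 to -1.18.

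The coding genes nearest to the lncRNAs were compared to see which of them moved at the same loci. Of 10 overlapping or nearest coding genes, 8 had enough reads to be tested and 1, ZC3H12A, passed the threshold, against 3.2% of all tested coding genes. It starts 148 bp from ZC3H12A-DT and is transcribed the other way.

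ZC3H12A (ENSG00000163874.8) had 828, 931 and 1046 reads after NFE2L2 siRNA, 2282, 2321, 2563 and 2480 in the controls and 2642 in the mock library. The groups did not overlap. For the neighbours such a separation is a description, since its share over all coding genes was not counted. The level of ZC3H12A was 23.8 ± 0.724 CPM (SD, n = 3) against 65.4 ± 4.14 CPM (SD, n = 4), and it fell by 1.46 on the log2 scale (SE 0.0938, edgeR adjusted p = 2.21e-05). This value lies close to that of its divergent lncRNA, -1.58 (SE 0.142). The divergent partners differed in the mock library, where ZC3H12A was at 101% of the control mean and ZC3H12A-DT at 131.9%. The counting used strand, so reads of these neighbours were counted apart. On the other side of ZC3H12A-DT, GRIK3, a kainate receptor gene, had at most 5 reads in any library and was not tested.

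At the RFPL1S locus the gene on the opposite strand, RFPL1, had 1 read in control library 2 and 0 in the other libraries, which allows up to 3 reads or 0.0844 CPM in the shallowest library. NEFH, the neurofilament heavy chain gene 2043 bp from the annotated 5′ end of RFPL1S and transcribed away from it, had 1, 3 and 8 reads after NFE2L2 siRNA, 10, 10, 17 and 15 in the controls and 25 in the mock library. Like RFPL1S, NEFH reached the minimum of 10 reads through the control libraries alone. Its log2 fold change of -1.77 (SE 0.512, edgeR adjusted p = 0.0639) missed the threshold at these few reads. AP1B1, a clathrin adaptor subunit gene on the far side, was at 68.2 ± 5.94 CPM (SD, n = 3) and 65.9 ± 6.37 CPM (SD, n = 4), a log2 fold change of 0.05 (SE 0.106, edgeR adjusted p = 0.815).

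At the LUCAT1 locus ARRDC3, an arrestin family gene 54084 bp from its 5′ end, was higher in all 3 NFE2L2 siRNA libraries than in all controls, with 7993, 5961 and 7432 reads against 5014, 3639, 4778 and 4443. The log2 fold change of 0.60 (SE 0.149, edgeR adjusted p = 0.0381) missed the threshold, and it ran opposite to that of LUCAT1. With DESeq2 the adjusted p was 0.00725, past the threshold. ADGRV1, a large adhesion receptor gene that overlaps the annotated span of LUCAT1 on the other strand, was at -0.39 (SE 0.331, edgeR adjusted p = 0.508). The next coding gene, LYSMD3, was at 0.02 (SE 0.170, edgeR adjusted p = 0.957). At the LINP1 locus PRKCQ, which encodes a protein kinase C of T cells and lies 129.2 kb away, was at 8.75 ± 0.944 CPM (SD, n = 3) and 8.79 ± 0.435 CPM (SD, n = 4), with an edgeR adjusted p = 0.987. SFMBT2, a Polycomb-group gene 418092 bp away, was higher in all 3 NFE2L2 siRNA libraries, with 1347, 1748 and 1806 reads against 722, 831, 1109 and 1017. Its log2 fold change was 0.73 (SE 0.153, edgeR adjusted p = 0.0186), again not past the threshold, although DESeq2 gave an adjusted p of 0.000596, and the control duplexes themselves differed for it by 0.48 (SE 0.136, edgeR adjusted p = 0.436).

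**Figure D4:**
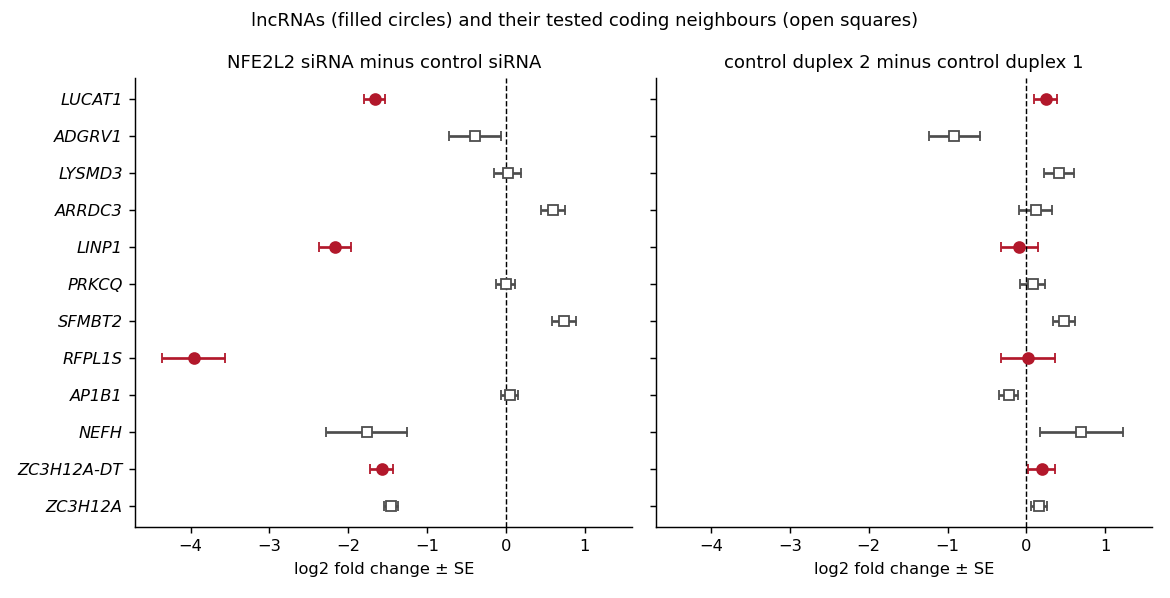
Log2 fold change with its standard error (horizontal axes) of the 4 lncRNAs (filled circles) and the 8 tested coding neighbours (open squares), for NFE2L2 siRNA minus control siRNA on the left and control duplex 2 minus duplex 1 on the right. On the left ZC3H12A (-1.46) lies beside ZC3H12A-DT (-1.58), while LUCAT1 and LINP1 have no neighbour near their values.

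Of all tested coding genes 3.2% passed the threshold, so a count of 0 among few genes says nothing about a locus. Within 500 kb of each lncRNA, 0 of 2 tested coding genes passed the threshold at LUCAT1, 0 of 3 at LINP1 and 0 of 16 at RFPL1S. At ZC3H12A-DT 2 of 13 did, ZC3H12A as reduced and EPHA10, an ephrin receptor gene 239519 bp away, as increased. EPHA10 had 156, 154 and 214 reads after NFE2L2 siRNA and 77, 94, 91 and 90 in the controls, a rise of 0.89 on the log2 scale (SE 0.151, edgeR adjusted p = 0.00744) that was past the threshold no longer, at 0.0126 to 0.0292, without any single library other than NFE2L2 siRNA library 2. Of the other lncRNAs within the same distance, 3 were tested, all near LINP1, and none passed the threshold. PRKCQ-AS1 was at -0.39 (edgeR adjusted p = 0.119), LINC00707 at -0.76 (edgeR adjusted p = 0.252) and LINC02649, with at most 13 reads in a library, at 1.28 (edgeR adjusted p = 0.323).

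**Figure D5:**
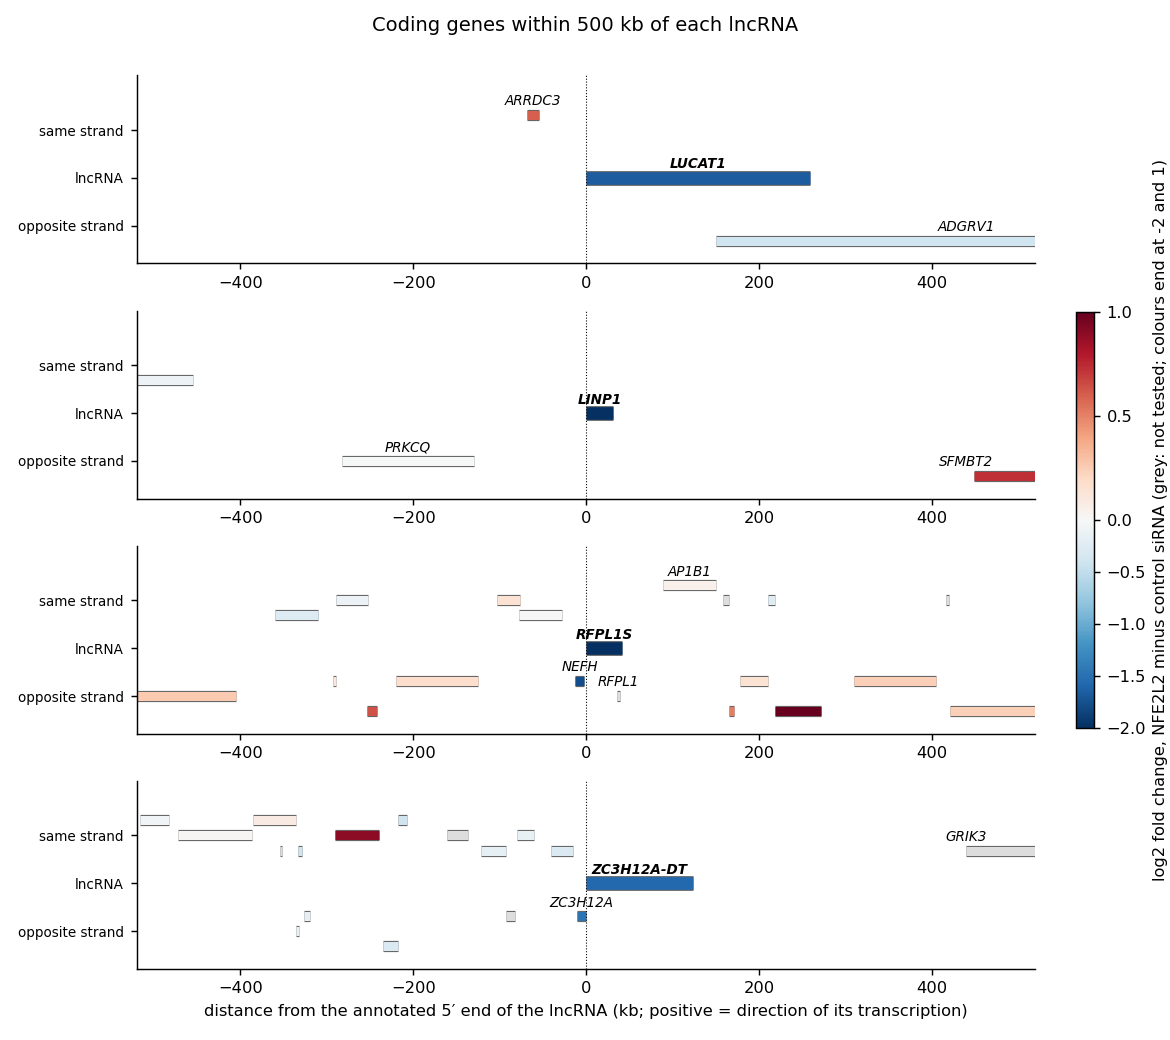
Coding genes within 500 kb of each lncRNA, by distance in kb from the annotated 5′ end of the lncRNA (horizontal axis, positive in the direction of its transcription) and by strand (vertical axis, with small offsets for legibility). Colour gives the log2 fold change of NFE2L2 siRNA minus control siRNA, with colours ending at -2 and 1 and untested genes in grey. ZC3H12A, 148 bp from ZC3H12A-DT, is the blue gene that passed the threshold, while EMID1 near RFPL1S, dark red at 1.00 (edgeR adjusted p = 0.278), did not pass it.

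The pathways that the lncRNAs are known for were described by lists of genes. Of 28 NRF2 targets, 27 were reduced past the threshold and 0 increased, with a median log2 fold change of -1.76 against 0.01 for all tested genes. Over all genes, 243 of 17811 tested were reduced past it. The list was chosen with earlier results of these data known, so its count is not an independent outcome. The log2 fold change was -3.62 for AKR1B10, an aldo-keto reductase gene, and -3.45 for OSGIN1, an oxidative stress-induced growth inhibitor. It was -3.09 for the cystine transporter gene SLC7A11 and -2.68 for the glutathione peroxidase gene GPX2. ABCC3, a drug efflux pump gene, was at -0.62 (edgeR adjusted p = 0.0248). The call of PRDX1, a peroxiredoxin gene at -0.95 (edgeR adjusted p = 0.00371), was lost without NFE2L2 siRNA library 3 (edgeR adjusted p = 0.0195). It was also lost without control library 2 (edgeR adjusted p = 0.0169). Of 9 regulators of NRF2, 4 passed the threshold, all as reduced, with a list median of -0.61. These were NFE2L2 itself, SQSTM1 (-1.28), an autophagy adaptor that binds KEAP1, MAFG (-1.15), a small MAF partner, and KEAP1 (-0.83). The call of KEAP1 was at the edge of the threshold (edgeR adjusted p = 0.00922) and was lost, at 0.0156 to 0.0424, without any single library other than NFE2L2 siRNA library 2.

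Of 8 tested genes of non-homologous end joining, the repair route LINP1 is known for, 0 passed the threshold, where 2.76% of all tested genes did, so the count says nothing about the group. They had log2 fold changes between -0.21 and 0.14 and a median of -0.11. XRCC5 and XRCC6, the Ku subunits, were at -0.08 and -0.18, and PRKDC, the catalytic kinase, at -0.11. Of 12 interferon response genes, the group LUCAT1 is known to restrain, 0 passed the threshold as well, to be read against the same 2.76%, and their median was 0.30. Their values ran from -0.18 for OAS1 to 1.06 for MX1 (edgeR adjusted p = 0.157). ISG15 was at 0.65 (edgeR adjusted p = 0.0459) and IFIT2 at 0.63 (edgeR adjusted p = 0.0426), while IFIT3 was at 0.002, IRF1 at 0.04 and IRF7 at 0.12. A part of LUCAT1 in these values was not tested. Of 8 tested genes of the ZC3H12 family and mRNAs known as Regnase-1 targets, ZC3H12A was reduced and NFKBIZ, an inhibitor-like regulator of NF-κB, was increased by 0.88 (SE 0.115, edgeR adjusted p = 0.00204), with a list median of -0.43. The call of NFKBIZ was lost without control library 2 (edgeR adjusted p = 0.0130) and without control library 3 (edgeR adjusted p = 0.0115). NFKBIZ was the only gene of that list past the threshold as increased, and IL6, at -0.87 (edgeR adjusted p = 0.0943), and CXCL8, at -0.54 (edgeR adjusted p = 0.0714), lay on the other side of 0. Of 6 RFPL genes and antisense transcripts other than RFPL1S, 2 had enough reads to be tested and 0 passed the threshold.

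Genes whose level was most like that of each lncRNA were found by Pearson correlation of log2(CPM + 0.5) over the 8 libraries, among 13339 tested genes with a mean of at least 50 reads. The 8 points fall into a lower and a higher group set by the siRNA, and all genes share these libraries, so the values are a description and carry no test. For LUCAT1 the genes were TLR6 (r = 0.993), KCTD15 (r = 0.993) and NMRAL2P (r = 0.992), and for LINP1 they were SLC19A3 (r = 0.998), MGST1 (r = 0.995) and PPP2R2C (r = 0.995). For RFPL1S they were TSPAN7 (r = 0.997), HECW1 (r = 0.997) and SNAI1 (r = 0.995), and for ZC3H12A-DT they were RRP12 (r = 0.997), AKR1C3 (r = 0.993) and ENTPD1-AS1 (r = 0.992). AKR1C3, an aldo-keto reductase gene, is also on the NRF2 target list. The choice depended on the measure, since by Spearman's rho 0 of the 3 genes were shared for LUCAT1 and for LINP1.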

How the data were processed

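Strand-specific total RNA of A549 cells was sequenced in 8 libraries, 3 with NFE2L2 siRNA, 4 with control siRNA and 1 mock. The authors aligned reads to hg19 with HISAT 0.1.6 and deposited counts per gene from HTSeq 0.6.0 with GENCODE v19, reverse-stranded and intersection-strict, without normalization. The classes of unassigned reads (34.4% to 39.7% of entries) were left out.

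Counts were compared with edgeR 4.0.16 in R 4.3.3 (TMM, quasi-likelihood test, prior count 0.125, two-sided). A gene was tested if any of the 7 compared libraries had 10 or more of its reads. P-values were adjusted by the Benjamini-Hochberg method across the tested genes, and a gene was called at an adjusted p under 0.01. The SE of a fold change is its size over the square root of F. The control duplexes were compared in a fit of 3 groups. GENCODE v44, in its GRCh37 version, gave positions and gene types, and spans may differ from the v19 models that were counted. An lncRNA is an lncRNA-type gene whose longest transcript reaches 200 bp, or a predicted one. The tests were tested on simulated data with known changes.

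Samples were grouped by their labels. The 2 libraries of a control duplex differed by more than counting noise (chi-square per degree of freedom 14.0 and 15.8) and were kept apart. The main comparison took the 4 control libraries as separate samples, so its p-values do not allow for a likeness within a duplex. Named genes were limited by rule to the 4 lncRNAs, NFE2L2, overlapping and nearest coding genes, up to 4 genes of each list with the largest changes past the threshold and any in the minority direction, the 3 genes most alike, and reduced lncRNAs beside the 4 in order. ABCC3, PRDX1, the list genes named without a call, the cell type markers, EPHA10, EMID1, PRKCQ-AS1, LINC00707 and LINC02649 fall outside that rule and were chosen after their values were seen. The lncRNAs and lists were chosen with earlier results of these data known. DESeq2 1.42.0, limma-voom (limma 3.58.1), DESeq2 size factors, other read minimums, other control groups and the omission of each library were alternatives. CPM is not scaled by gene length and was not compared between genes.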

Additional observations from a re-analysis of the deposited data

Results flagged for a closer look

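ZC3H12A-DT was higher in the mock library, which enters no test, than in any control library, at 24.8 CPM against 17.3 to 20.3 CPM. With 1 mock library this difference has no replicate check.

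The control libraries of PRKCQ held a value apart from the rest. Control library 3, at 9.43 CPM, was separated from the nearest of the other control libraries (8.49 to 8.62 CPM) by 0.865 of the group's range, above Dixon's critical value for 4 samples. Chance flags about 1 in 20 such groups, and 13 genes were examined.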

How the results depend on the processing

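The 4 lncRNAs kept a negative log2 fold change under all 16 alternatives, between -1.78 and -1.55 for LUCAT1, -2.39 and -1.98 for LINP1, and -1.67 and -1.46 for ZC3H12A-DT. RFPL1S, with few reads, shifted when an NFE2L2 siRNA library was left out, over a range of -4.81 to -3.67. ZC3H12A kept its call under all 16 alternatives, with edgeR, DESeq2 or limma-voom adjusted p-values of at most 0.00295. The number of nearest coding genes past the threshold rose from 1 to 3 with DESeq2 and with a minimum of 1 read (ARRDC3 and SFMBT2 added), and to 2 with the mock library among the controls (SFMBT2 added). It was also 2 when every coding gene within 500 kb was taken, an alternative chosen after the data were seen. The number over all genes depended on the processing. It was 491 in the main comparison, 1319 with DESeq2, 1019 with a minimum of 1 read, 772 with the mock library among the controls and 1456 at a threshold of 0.05. It was 120 against control duplex 1 alone, 59 against duplex 2 alone and 78 with each control duplex summed to 1 library. These fits use fewer samples, and summing also removes the spread within a control duplex. The part of either in the lower numbers was not tested. Leaving out 1 library gave 163 to 915, with 238 without NFE2L2 siRNA library 3 and 277, 198 and 221 without control libraries 1, 3 and 4. Of the genes on the lists, 33 passed, 19 did so against control duplex 2 alone and 23 to 34 under the other alternatives. Of the NRF2 targets 16 passed against control duplex 2 alone, and of the NRF2 regulators 2 passed against either control duplex alone or with each control duplex summed. Between the control duplexes, 8 genes passed with a minimum of 1 read, 10 at a threshold of 0.05, 566 in the 4 control libraries alone, and 0 to 9 with 1 library left out. In that comparison LINP1 ran from -0.22 to 0.053 and RFPL1S from -0.15 to 0.18 with 1 library left out, so both changed sign. Neighbours near 0 changed sign as well. ADGRV1 was at 0.14 and LYSMD3 at -0.17 against control duplex 2 alone, PRKCQ at 0.024 and AP1B1 at -0.067 against control duplex 1 alone, and LYSMD3 at -0.015 with the mock library among the controls. With 1 library left out LYSMD3 ran from -0.11 to 0.18, PRKCQ from -0.062 to 0.082 and AP1B1 from -0.037 to 0.10. The cause of the differences between alternatives was not tested.

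No paired analysis was possible because a number in the NFE2L2 siRNA labels names a duplex and a number in the control labels names a transfection within another duplex, so equal numbers do not mark a shared sample. Depth limits RFPL1S, RFPL1 and NEFH, whose libraries hold few or 0 reads.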
